A study of Mus musculus with 4 samples.

Results

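T cells of the pancreatic islets that carried RNA of activation cytokines, but no RNA of Cd8a, Cd8b1 or Foxp3, numbered 63 of 3809 kept cells in these data. They were selected on measured RNA: a cell was taken when at least 2 of 7 genes (Ccl1, Xcl1, Tnfrsf9, Il4, Il13, Il2 and Ifng) each had at least 1 UMI, a count of 1 captured RNA molecule. Cells with 4 or more of 10 cell division genes (Mki67, Top2a, Birc5, Ube2c, Cdk1, Ccna2, Ccnb2, Rrm2, Stmn1 and 2810417H13Rik) were left out. At 8 weeks of age 39 cells were taken, and at 16 weeks 24. They are called activated cells here, and all other kept cells without a Cd8a, Cd8b1 or Foxp3 UMI, 1273 and 1345 of them, are the comparison cells.

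The cells came from female NOD mice, a strain prone to spontaneous autoimmune diabetes, which were pre-diabetic at both ages. Islet cells that stained for TCR beta and were live by DAPI were sorted and made into droplet-based 5′ RNA and receptor libraries. Each age had 1 RNA library and 1 receptor library, with no transgene, treatment or other strain. How many mice went into a library is not given in the sources used here. With 1 library per age no test was possible. Differences between ages are differences between these libraries, and every interval below is a 95% interval that covers counting error only.

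The RNA libraries held 2043 and 2107 barcodes with 8659371 and 8183747 UMIs at 8 and 16 weeks, of which 1875 and 1934 barcodes were kept. The kept sets shared 5 barcodes, none of them an activated cell. Median depth differed between the classes: activated cells had 6059 and 5752.5 UMIs per cell at 8 and 16 weeks, and comparison cells 2672 and 2683.

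A T cell that meets its antigen signals through the receptor to NFAT, AP-1 and NF-kB family factors and within hours starts to transcribe cytokines, chemokines and TNF receptor family members. CD4 T cells of the type 1 helper kind are known for interferon gamma and those of the type 2 kind for interleukins 4 and 13, while interleukin 2 is an early product of several kinds. In NOD islets, T cells of both the CD4 and the CD8 lineage take part in the attack on beta cells, and interferon gamma is a main cytokine there.

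Receptor sequences, which the selection did not use, are shown first for 4 clonotypes on which later results turn. A clonotype is a pair of an alpha and a beta chain with the same CDR3 bases, the CDR3 being the stretch of the receptor where the joined gene segments meet and where most contact with the peptide is made. Each is printed from the deposited contig table with its first 12 and last 12 bases in lower case and the centre in capitals. Clone 1 was the largest that held activated cells, clone 2 the next, clone 3 included cells with Foxp3 UMIs, and clone 16 was found at both ages.
Clone 1 alpha (TRAV21-DV12, TRAJ57): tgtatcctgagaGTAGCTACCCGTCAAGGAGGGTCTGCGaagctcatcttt
Clone 1 beta (TRBV13-2, TRBJ2-7): tgtgccagcgggGGATATgaacagtacttc
Clone 2 alpha (TRAV13D-1, TRAJ32): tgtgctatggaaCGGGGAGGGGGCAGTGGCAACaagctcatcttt
Clone 2 beta (TRBV15, TRBJ1-4): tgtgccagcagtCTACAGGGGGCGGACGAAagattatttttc
Clone 3 alpha (TRAV4-3, TRAJ21): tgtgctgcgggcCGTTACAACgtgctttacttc
Clone 3 beta (TRBV5, TRBJ2-1): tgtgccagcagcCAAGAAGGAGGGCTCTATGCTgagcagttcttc
Clone 16 alpha (TRAV5-4, TRAJ56): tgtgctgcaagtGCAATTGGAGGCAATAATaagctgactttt
Clone 16 beta (TRBV1, TRBJ2-7): tgcagtgggacaTATgaacagtacttc

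The label given to these cells, cytokine producers marked by Ccl1, Xcl1, Tnfrsf9, Il13, Il4 and Odc1, held in part. Their commonest RNA was that of Ifng, which encodes interferon gamma, with UMIs in 29 of 39 cells at 8 weeks and 18 of 24 at 16 weeks, and of Tnfrsf9, which encodes the costimulatory receptor 4-1BB, in 30 and 12 cells. Il13 UMIs were found in 1 activated cell, and Il4 UMIs in 3 cells at 8 weeks and none at 16 weeks. A count of 0 of 24 cells allows a share of up to 12.5% of cells with a UMI, which does not limit the share of cells expressing the gene. All 7 genes were used to choose the cells, so their values describe the choice.

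Ifng summed to 74 UMIs at 8 weeks, 278 counts per 1000000 UMIs of the activated cells (CPM, interval 219 to 350), and 48 UMIs at 16 weeks, 290 CPM (214 to 384). The intervals of the ages overlapped for Ifng. Most cells held little of it, and the highest held 8 UMIs at 8 weeks and 11 at 16 weeks. Comparison cells had 50.5 and 36.8 CPM. Free RNA in droplets can give single UMIs, and in comparison cells with UMIs of both Lef1 and Ccr7, genes of naive T cells, Ifng was found in 1.67% and 1.71% of cells at median depths of 2676 and 2833 UMIs.

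Tnfrsf9 summed to 65 and 28 UMIs, 245 and 169 CPM in activated cells against 26.9 and 25.1 in comparison cells, and the cells of naive type had a UMI in 4.18% and 4% of cases. Xcl1, a chemokine that draws cross-presenting dendritic cells, was found in 19 and 11 activated cells with 90 and 33 UMIs, at most 17 and 11 in 1 cell. Naive-type cells had Xcl1 in 0.557% and 0.952% of cases. Cells with a Cd8a or Cd8b1 UMI and no Cd4 UMI had it in 17.9% and 10.2%. The Xcl1 level was 339 and 199 CPM in activated cells and 200 CPM in those cells at both ages. Il2 was found in 7 and 5 cells, with 40 UMIs at 8 weeks and 7 at 16 weeks. Of those 40, 31 came from 1 cell.

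Ccl1, the ligand of the chemokine receptor Ccr8, was rare and uneven. At 8 weeks 5 cells had 95, 95, 20, 8 and 1 UMIs, and at 16 weeks 4 cells had 3, 3, 3 and 1. The summed level was 824 CPM at 8 weeks (718 to 941) and 60.3 at 16 weeks (28.9 to 111). These intervals treat UMIs as independent, but 2 cells gave most of the 8-week value. The gap between the sums therefore does not show a difference between the libraries. By cell, Ccl1 was found in 12.8% of activated cells at 8 weeks and 16.7% at 16 weeks, with overlapping intervals. Comparison cells with a Ccl1 UMI numbered 3 and 1.

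The type 2 cytokines rested on 1 cell at 8 weeks. It held 36 UMIs of Il13, 41 of the 43 Il4 UMIs of its class, 31 of Il2 and 95 of Ccl1, with no UMI of Ifng or Xcl1. Il4 and Il13 are neighbours on chromosome 11 (mm10, 53602982 to 53618669 and 53631324 to 53634702, both on the minus strand). The same cell had 6 UMIs of Gata3, the type 2 lineage factor, 22 of Nr4a1, 15 of Tnfrsf4 and 13 of Tnfsf11, but no Cd4 UMI. It carried 1 alpha and 1 beta chain. Markers of mast cells and basophils, which also make interleukin 4 and 13, were at 0 in all activated cells (Cpa3, Mcpt8, Ms4a2, Fcer1a, Kit, Hdc and Gata2), where a count of 0 allows up to 11.3 CPM at 8 weeks and 18.1 at 16 weeks. The other 2 cells with Il4 had 1 UMI each, and 1 of them also had Ifng.

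**Figure D1:**
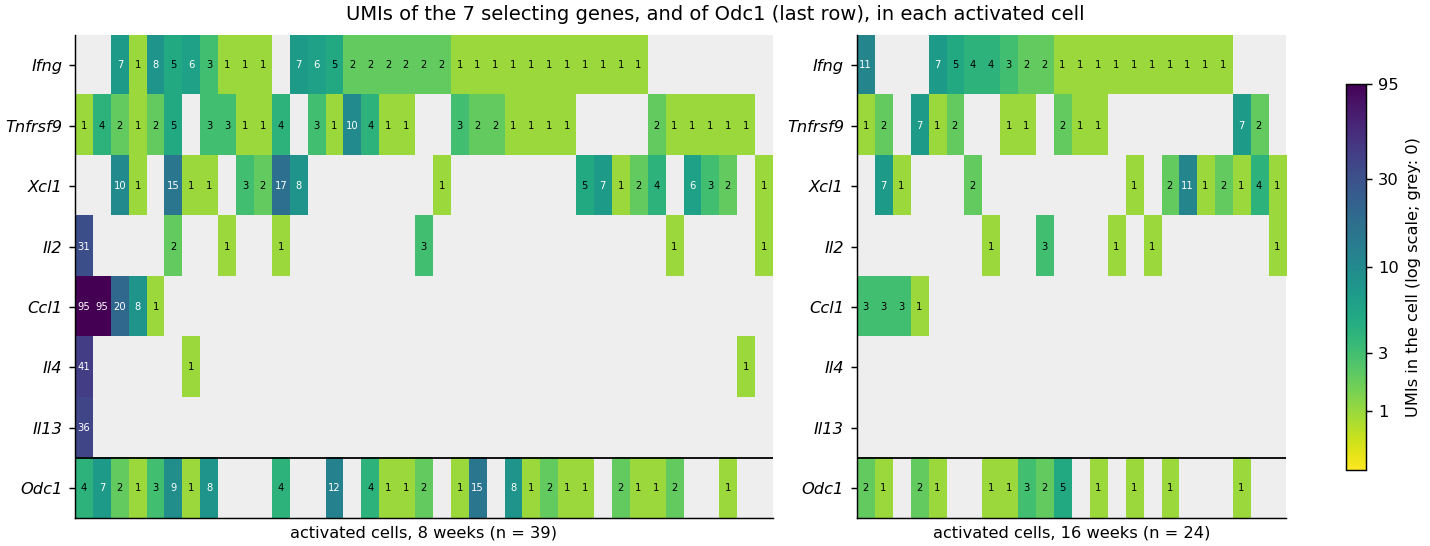
UMIs of the 7 selecting genes and of Odc1 (rows) in each of the 39 activated cells at 8 weeks and 24 at 16 weeks (columns), on a log colour scale with 0 in grey. Ifng and Tnfrsf9 fill most columns at low counts, while Il13 appears in 1 cell and Ccl1 reaches 95 UMIs in 2 cells.

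Ifng together with Tnfrsf9 and no other selecting gene was the commonest pattern, in 13 cells at 8 weeks and 7 at 16 weeks, followed by Xcl1 with Ifng, in 6 and 6. Exactly 2 genes were found in 28 and 22 cells, the least the rule allows, and 8 and 7 cells had no more than 2 UMIs of the 7 genes together. Just outside the rule lay 200 and 151 comparison cells with 1 of the 7 genes, and 12 and 7 that had 2 or more but were left out for their division genes. At least 10 UMIs of the 7 genes were found in 9 cells at 8 weeks and 3 at 16 weeks.

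Activated cells made up 2.97% of the cells without Cd8a, Cd8b1 or Foxp3 UMIs at 8 weeks (39 of 1312, interval 2.12 to 4.04%) and 1.75% at 16 weeks (24 of 1369, 1.13 to 2.60%). The difference, 16 minus 8 weeks, was -1.22 percentage points (Newcombe interval -2.43 to -0.0643). The share followed depth within each library. It went from 0.305% in the 25% of cells with the fewest UMIs to 8.84% in the 25% with the most at 8 weeks, and from 0 of 342 to 6.12% at 16 weeks. After every cell was thinned to 1700 UMIs, 18 of 1296 cells (1.39%) and 11 of 1379 (0.798%) met the rule, with 186 and 151 shallower cells left out. Thinning also removed lineage UMIs: 137 and 130 of these cells, 5 of the 18 and 4 of the 11 among them, had a Cd8a, Cd8b1 or Foxp3 UMI at full depth. The difference was then -0.591 points (-1.46 to 0.215). Over 10 such draws the number ranged from 18 to 25 at 8 weeks (median 21) and from 8 to 19 at 16 weeks (median 10), so the values given are those of a draw with the lowest 8-week number. The difference ranged from -1.33 to -0.461 points with a median of -0.769, and its interval lay below 0 in 5 draws and held 0 in the other 5. The difference was below 0 in all 10 draws, and whether its counting interval held 0 turned on the draw.

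Lineage was read from genes that the rule left free. Every activated cell had a UMI of the CD3 genes, and Cd3e stood at 2197 and 1834 CPM against 1968 and 1859 in comparison cells. Cd4 UMIs were found in 25 of 39 activated cells (64.1%) and 18 of 24 (75%), against 49.7% and 46.9% of comparison cells. Among deep comparison cells, those at or above the 25th percentile of UMIs of the activated cells, these shares were 77.6% and 75.9%. The differences of activated from deep comparison cells were -13.5 points at 8 weeks (-29.9 to 0.761) and -0.879 at 16 weeks (-21.5 to 13.6). Activated cells below that percentile were kept, so depth was not matched here or below. Deep comparison cells had medians of 6707 and 6149 UMIs, above those of activated cells. As a level, Cd4 was 267 against 252 CPM at 8 weeks and 314 against 235 at 16 weeks. No Cd4 UMI was found in 14 and 6 activated cells. A count of 0 for Cd8a and Cd8b1 does not show that a cell lacks their RNA. The part of CD8 cells among the activated cells was not tested.

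Markers of other cell types differed in level. Myeloid markers gave 1 UMI at 8 weeks and 2 at 16 weeks, both from Cd68, with 9 of 10 genes at 0. The B cell list had 33.9 and 24.1 CPM against 391 and 61.2 in comparison cells, with 5 of its 7 genes at 0 in each library, Cd79a and Ms4a1 among them. Its UMIs, 8 and 3 of them from Cd74, lay in 7 of 39 activated cells (17.9%) and 3 of 24 (12.5%), against 5.26% and 3.20% of comparison cells. Pancreatic acinar genes summed to 37.6 and 66.4 CPM against 156 and 245 in comparison cells, where the highest cell held 212 and 178 of their UMIs. By cell, acinar UMIs lay in 10.3% and 20.8% of activated cells, against 10.6% and 12.9% of comparison cells. The list of innate-like and NK cell genes was higher, at 756 and 833 CPM against 285 and 174. Its most abundant gene was Il2rb, with 94 and 71 UMIs, a receptor chain that activated T cells also express. Il2rb was at 354 against 191 CPM at 8 weeks and 428 against 137 at 16 weeks. In activated cells without a Cd4 UMI, Tyrobp was at 93.2 and 130 CPM, against 10.2 and 0.673 in all comparison cells. These levels rested on 8 UMIs in 3 of 14 cells and 4 UMIs in 2 of 6. Ncr1 was at 0 and 261 CPM in the activated cells without a Cd4 UMI, the latter from 8 UMIs in 2 cells, against 9.75 and 2.69. Activated cells with a Cd4 UMI had no Tyrobp UMI. Klrb1c was found in 3 cells at 8 weeks with 1 UMI each, and Zbtb16 in 1 cell. The group 2 innate lymphoid list was at 154 against 29.9 CPM at 8 weeks, in 12 of 39 activated cells (30.8%) against 7.07% of comparison cells, and at 36.2 against 33.4 CPM at 16 weeks, in 5 of 24 cells. Areg, which encodes the growth factor amphiregulin, gave 29 of its 41 UMIs at 8 weeks, 1 cell held 18 of the list's UMIs, and Il17rb, Arg1 and Calca were at 0 in both libraries. The part of cells of these types in the results was not tested.

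Fcer1g, the gene of an Fc receptor signalling chain common in innate-like lymphocytes, marked a small subset that was singled out after the values were seen. It had 3 or more UMIs in 6 of 39 activated cells and 2 of 24, of which 5 and 2 had no Cd4 UMI. Xcl1 was found in 5 and 2 of them, and they held all Tyrobp and Ncr1 UMIs of the activated cells. Ccl5, a chemokine of effector and memory T cells, reached 8536 and 8595 CPM in these cells, against 612 and 1778 in the other activated cells. Of the subset's Ccl5 UMIs, 159 of 317 at 8 weeks and 56 of 76 at 16 weeks lay in 1 cell. Of the 6 with a pair of receptor chains (5 and 1), none shared its clonotype with another cell. Tnfrsf4 UMIs were found in 2 of the 6 cells and in 0 of the 2, compared with 25 of 39 and 15 of 24 activated cells in all.

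Cells with 2 or more productive beta chains, which can be doublets, were more frequent among activated cells. Of the activated cells in which a beta chain was found they made up 10 of 37 (27.0%) and 9 of 22 (40.9%) at the earlier and later age, against 7.07% and 9.42% of comparison cells. Deep comparison cells had 18.7% and 32.6%, and the differences from these were 8.30 points (-4.55 to 24.9) and 8.28 (-10.7 to 29.6). The part of doublets in the results was not tested. Without them, on both sides, 498 genes could be compared, of which 8 were at least 2-fold higher and 4 at least 2-fold lower in both libraries. Of the 18 and 6 genes given below, 6 and 2 were among those 498, and 6 and 2 were still past 2-fold.

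Across the 1008 genes with enough UMIs in both libraries, 18 were at least 2-fold higher in activated than in comparison cells in both (1.79% of the genes compared) and 6 at least 2-fold lower (0.595%). The selection used RNA of the same cells, so these ratios are a description. Ifng, a selecting gene, was among the 18. Log2 ratios below are of activated over comparison cells with 0.5 UMIs added to each sum. The median over all 1008 genes was 0.08 at 8 weeks and 0.12 at 16 weeks. With comparison cells weighted to the depth of the activated cells, 9 genes were higher in both libraries, 8 of them among the 18, and 8 were lower. Only 2 of the 6 lower genes then had enough UMIs to be compared, and neither was past 2-fold in both.

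Among compared genes with no more than 25% of their UMIs in 1 cell, and apart from the selecting gene Ifng, Nkg7 had the highest value of the smaller of its 2 ratios. Nkg7, which encodes a cytotoxic granule protein of NK cells, CD8 T cells and type 1 helper cells, was found in 30 of 39 and 17 of 24 activated cells. Its level was 967 against 204 CPM at 8 weeks (log2 ratio 2.25, 2.04 to 2.45) and 845 against 140 at 16 weeks (2.60, 2.32 to 2.87). With depth-weighted comparison cells the ratios were 2.11 and 1.98. Cells with a Cd8a or Cd8b1 UMI and no Cd4 UMI, outside both classes, had more Nkg7, at 1404 and 1097 CPM. Ctsw, a cathepsin of cytotoxic lymphocytes, was at 395 against 168 CPM and at 471 against 118 (1.24 and 2.0). Nkg7 was the 1 type 1 helper gene of 11 listed with enough UMIs in both libraries. Tbx21, the type 1 lineage factor, had only 8 UMIs in each library, too few for the comparison. It was at 30.1 against 19.7 CPM at 8 weeks (0.69, -0.64 to 1.65) and 48.3 against 15.5 at 16 weeks (1.72, 0.37 to 2.70). Without the highest cell the Tbx21 ratios were 0.09 and 1.13.

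Costimulatory and TNF family genes formed the next group. Tnfrsf4, which encodes the receptor OX40, was found in 25 and 15 activated cells, at 711 against 230 CPM at 8 weeks and 434 against 166 at 16 weeks (1.63 and 1.40). Cd82, a tetraspanin, was at 745 against 310 and 501 against 233 CPM (1.27 and 1.11). Tnfsf8, the ligand of CD30, was at 233 against 113 and 247 against 95.8 CPM (1.05 and 1.38). These 3 of the 8 members compared were at least 2-fold higher in both libraries, against 18 of all 1008 genes (1.79%), and none was 2-fold lower. With depth-weighted comparison cells the ratios were 1.19 and 0.54 for Tnfrsf4, 1.17 and 0.89 for Cd82, and 0.96 and 1.57 for Tnfsf8, so none of the 3 then passed 2-fold in both. The list's median ratio was 0.82 and 0.59 over those 8, against 0.08 and 0.12 for all genes.

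The inhibitory list had 5 members compared, and Cd200, which encodes a surface glycoprotein that restrains myeloid cells and is known in follicular helper T cells, passed 2-fold in both. Cd200 was found in 28 and 13 activated cells, at 745 against 185 CPM and 362 against 131 (2.02 and 1.48). With depth weighting the Cd200 ratios were 1.61 and 0.83. Lag3 was at 354 against 182 and 272 against 165 CPM (0.96 and 0.73), and Pdcd1, the gene of PD-1, at 297 against 152 and 284 against 94.9 (0.97 and 1.59). All 5 members lay above 0 in both libraries, with medians of 0.96 and 0.81. Of all 1008 genes, 606 lay above 0 at 8 weeks and 643 at 16 weeks, and 18 (1.79%) were at least 2-fold higher in both. Of 4 follicular helper genes compared, Cd200 was past 2-fold, while Slamf6 was at 0.02 and 0.13 and Sh2d1a at -0.33 and -0.59.

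Receptor-signal genes, those known to follow signals through the T cell receptor, were above the median of all genes. All 8 members compared in both libraries had ratios above 0, as had 606 and 643 of all 1008 genes. The list's medians were 1.08 and 0.79. At least 2-fold higher in both were 3 members, against 18 of all 1008 genes (1.79%). Nr4a1, which encodes the orphan nuclear receptor Nur77, had 267 against 105 CPM and 265 against 123 (1.36 and 1.12), and was found in 20 and 14 cells. Without the cell with the most of its UMIs in each library, its ratios were 0.86 and 0.71. Rgs16, a regulator of G protein signalling, was at 583 against 115 CPM and 205 against 101 (2.35 and 1.05), and the latter was 0.69 without 1 cell. Bcl2a1b, a survival gene of the Bcl2 family, was at 241 against 96.9 and 223 against 75.8 CPM (1.32 and 1.58). It belongs to a family of near-identical copies, so its counts are uncertain. With depth weighting the ratios were 2.05 and 0.31 for Rgs16, 0.99 and 0.93 for Bcl2a1b, and 1.46 and 1.02 for Nr4a1, so that 1 of the 3 was past 2-fold in both. Nfkbia and Rgs1 had the most UMIs of the others, with ratios of 0.76 and 0.57 for Nfkbia and 1.14 and 0.53 for Rgs1.

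The chemokines Ccl4 and Ccl5 were past 2-fold in both libraries but uneven between cells. Ccl5 was at 1719 against 546 CPM and 2142 against 645 (1.65 and 1.73), from 11 and 10 cells, with 34.8% and 28.2% of its UMIs in 1 cell. Without those cells the ratios were 1.07 and 1.31. Cells with a Cd8a or Cd8b1 UMI and no Cd4 UMI had more Ccl5, at 4888 and 4648 CPM. Ccl4 was at 798 against 41.8 and 416 against 168 CPM, with 65.1% and 75.4% of its UMIs in 1 cell. Without them the Ccl4 ratio was 2.84 at 8 weeks and -0.57 at 16 weeks, so its 16-week direction rested on that cell.

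Penk, Igfbp7 and Nrn1 were high for their class but likewise concentrated. Penk, which encodes proenkephalin, was at 530 against 34.3 CPM in 12 cells at 8 weeks and at 350 against 51.4 in 2 cells at 16 weeks (3.95 and 2.78). Without the highest cell the Penk ratios were 3.37 and 1.36. Igfbp7, a secreted binding protein, was at 275 against 28.4 and 247 against 17.0 CPM in 13 and 7 cells (3.28 and 3.87, and 2.65 and 3.52 without the highest cell). Nrn1, which encodes neuritin, was at 286 against 105 and 338 against 57.4 CPM (1.45 and 2.57, and 1.02 and 2.11 without the highest cell). Efhd2, a calcium-binding protein, had ratios of 1.04 and 1.51. The remaining 2 of the 18 genes were 1700019D03Rik (1.43 and 1.34) and Rilpl2 (1.04 and 1.44).

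Several further genes among the 20 highest passed 2-fold in 1 library or neither. Il2rb was at 354 against 191 CPM at 8 weeks and 428 against 137 at 16 weeks (0.90 and 1.66). Zyx had 0.95 and 1.26, Gimap5 0.93 and 1.30, Gadd45b 1.02 and 0.67, Tbc1d4 0.80 and 0.96, and Anxa2 0.68 and 0.74. Ramp1, M6pr, Ndfip1 and Gtf2h5 lay between 0.61 and 0.85 in both libraries.

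**Figure D2:**
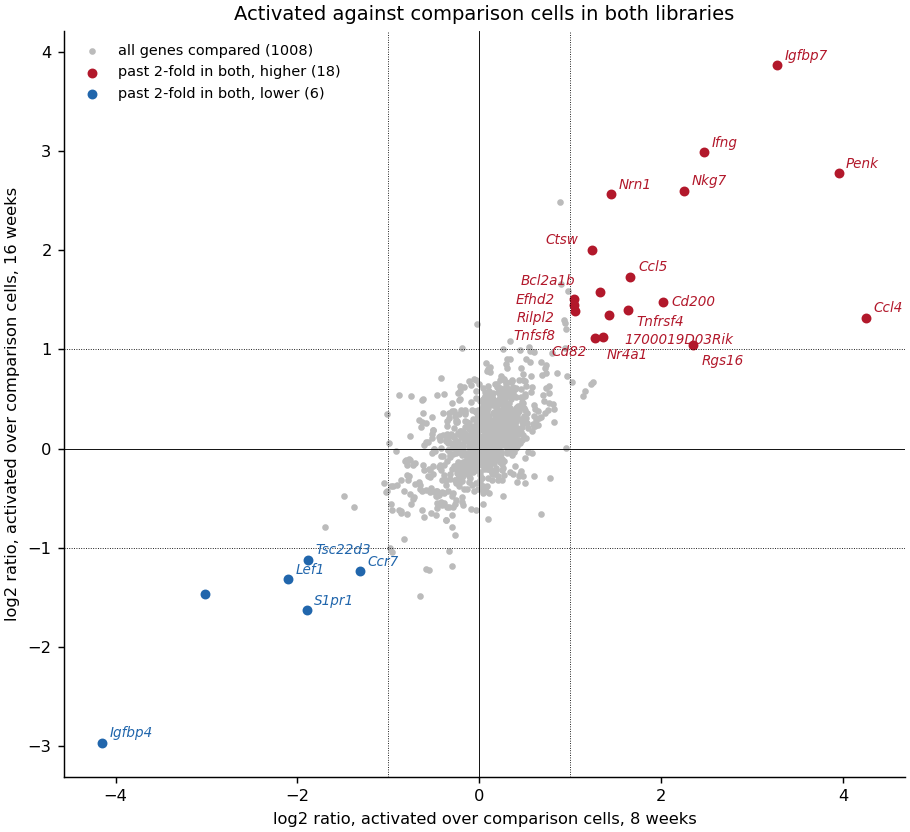
Each point is 1 of the 1008 genes compared, with its log2 ratio of activated over comparison cells at 8 weeks (x axis) and 16 weeks (y axis), and dotted lines at 2-fold. The 18 genes higher in both (red) include the selecting gene Ifng, and the 6 lower in both (blue, 1 without a name) include Lef1, Ccr7 and S1pr1.

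Genes of naive and circulating T cells were lower in activated cells. Of 9 listed members compared, 4 were at least 2-fold lower in both libraries, against 6 of all 1008 genes (0.595%). Lef1, Ccr7 and S1pr1 were among the 4, and the list's medians were -1.31 and -0.87. Lef1, which encodes a transcription factor high in naive cells, was at 64.0 against 283 CPM at 8 weeks and 199 against 503 at 16 weeks (-2.10 and -1.32). S1pr1, the receptor that lets T cells leave tissues for lymph and blood, was at 52.7 against 203 and 84.5 against 271 CPM (-1.89 and -1.63). Ccr7, a lymph node homing receptor, had ratios of -1.31 and -1.24. Tcf7, which encodes TCF-1, was at 109 against 216 and 151 against 236 CPM (-0.96 and -0.62), and Klf2 had ratios of -1.37 and -0.59.

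Much of this gap went with depth. With depth-weighted comparison cells the Lef1 ratios were -0.96 and -0.23, those of Ccr7 -0.52 and -0.68, and of S1pr1 -1.02 and -0.55. The median of the list less that of all genes went from -1.39 to -0.583 at 8 weeks and from -0.987 to -0.149 at 16 weeks. Depth moves both with the selection and with these genes, and its part beyond this weighting was not tested.

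Igfbp4 and Tsc22d3, outside that list, were also at least 2-fold lower in both libraries. Igfbp4, an insulin-like growth factor binding protein, had 6 and 9 UMIs in activated cells, at 22.6 against 432 and 54.3 against 448 CPM (-4.14 and -2.97, and -2.75 and -1.66 with depth weighting). Tsc22d3, a glucocorticoid-induced brake on T cell activation, was at 52.7 against 201 and 96.5 against 217 CPM (-1.88 and -1.12, and -0.86 and -0.001 with depth weighting). It was the 1 of 5 compared quiescence brakes past 2-fold in both libraries, where 6 of all 1008 genes (0.595%) were lower. The medians of the list of quiescence brakes were -0.65 and -0.59, with Btg1 at 0.12 and 0.26. Hmgb2, a chromatin protein high in dividing cells, was at 188 against 618 and 229 against 401 CPM (-1.70 and -0.79, and -2.44 and -2.21 with depth weighting), and dividing cells were kept only on the comparison side. Dgka, the diacylglycerol kinase known from anergic cells, had ratios of -0.87 and -0.65, and of -0.36 and 0.11 with depth weighting. Samhd1 was at -0.55 and -1.22. Another 9 of the 15 lowest (Mndal, Arhgap15, Cnp, Atp1b3, Ets1, Acp5, Crlf3, Hnrnpf and Tmsb10) lay between -1.04 and -0.51.

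No growth gene was past 2-fold in both libraries. Odc1, the first enzyme of polyamine synthesis, was not used to choose the cells. It was found in 26 and 13 activated cells, at 357 against 94.8 CPM at 8 weeks (1.92, 1.58 to 2.24) and 133 against 81.4 at 16 weeks (0.73, 0.01 to 1.33). With depth-weighted comparison cells the Odc1 ratios were 1.46 and -0.07, so the marker was past 2-fold at 8 weeks only. None of the 10 compared genes of polyamines, ribosome assembly and growth passed 2-fold in both libraries, with medians of 0.35 and 0.33. Eif5a had ratios of 0.77 and 0.46 and Npm1 0.36 and -0.07. None of 7 genes of metabolism passed either, Gapdh being at 0.34 in both libraries.

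Levels over cells with 0, 1 and 2 genes are a description, since the named genes were chosen for their difference between the classes. Of the 20 highest genes, 18 at 8 weeks and 13 at 16 weeks had a level in comparison cells with 1 selecting gene that lay between those of cells with 0 and of activated cells with exactly 2. For the 15 lowest this held for 14 and 11, and for all 1008 genes compared for 545 (54.1%) and 421 (41.8%). Nkg7 went from 153 CPM in cells with 0 genes to 326 with 1, 691 with 2 and 1584 with 3 or more at 8 weeks, and from 77.4 to 398, 756 and 1823 at 16 weeks. Lef1 went from 351 to 121, 65.3 and 60.9 CPM at 8 weeks. At 16 weeks Lef1 went from 593 to 139 and 164, and the 2 cells with 3 or more genes were at 584 (252 to 1150). Cells with 1 gene were also deeper than those with none, with medians of 3940.5 and 3867 UMIs against 2537 and 2625.

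**Figure D3:**
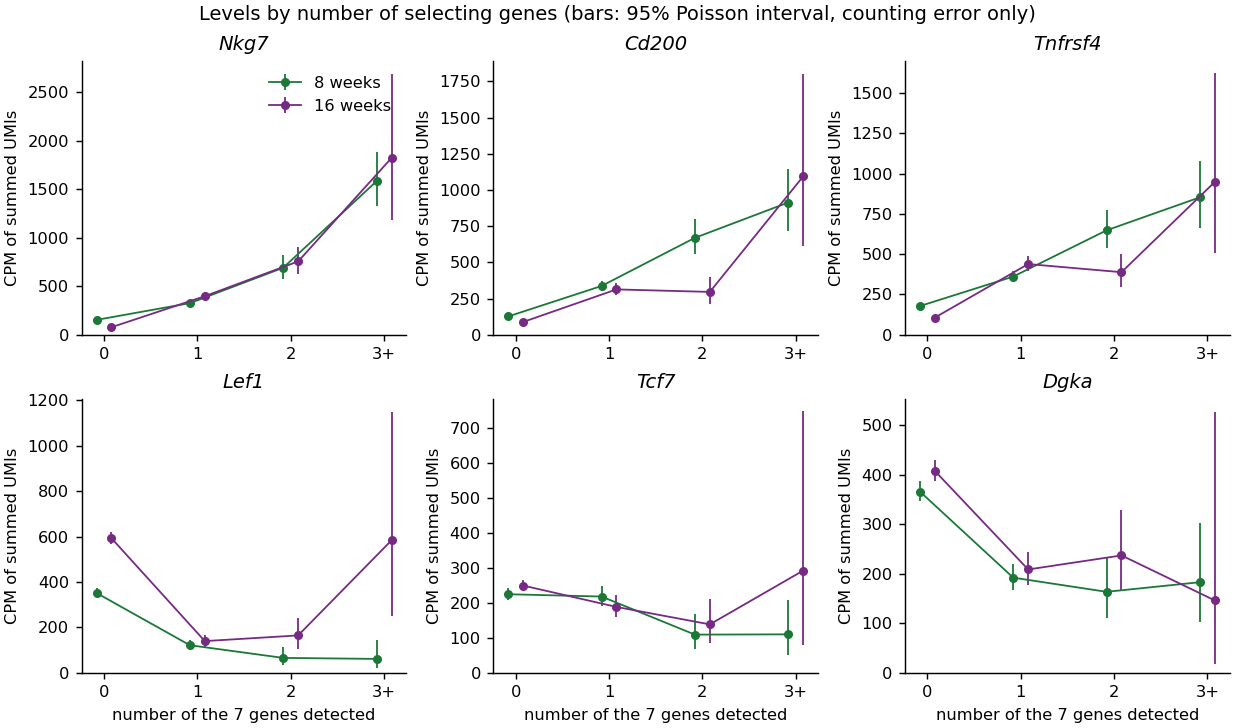
CPM of summed UMIs (y axis) of 6 genes in cells with 0, 1, 2, or 3 and more of the 7 selecting genes (x axis) at 8 weeks (green) and 16 weeks (purple), bars being 95% Poisson intervals. Nkg7 is higher at each step in both libraries, while the 16-week values at 3 or more rest on 2 cells.

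Several further lists are given by their values. Among immediate early and stress genes the 12 compared had medians of -0.39 at 8 weeks and 0.15 at 16 weeks, with Junb at 0.58 and -0.05 and Hspa1b at -0.46 and -0.43. Of other cytokines, Ltb was at -0.22 and -0.24 and Tgfb1 at 0.81 and 0.45, and the remaining 15 had too few UMIs for the comparison in both libraries. The anergy genes Izumo1r and Dgka were at 0.60 and 0.33 and at -0.87 and -0.65, and Dgka at -0.36 and 0.11 with depth weighting. Cxcr6, a receptor of tissue-resident T cells, was compared at 8 weeks only, at 177 against 66.4 CPM (1.43). The type 2 list had no gene compared in both libraries, and Gata3 was at 0.75 and 0.35. Ifi27l2a, an interferon-response gene, was at 0.34 and -0.24. Maf, a lineage factor, was at -0.03 and 1.26, and Ikzf2 at -0.03 and 0.58.

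Activated cells of the 2 libraries were compared over 1052 genes, of which 12 were at least 2-fold higher at 16 weeks (1.14%) and 16 at least 2-fold lower (1.52%). The highest included Klf6, Lef1, Zfp36l2, Itgb7, Btg2, Ier2 and Jun. Klf6 was at 139 CPM at 8 weeks and 465 at 16 weeks (log2 ratio 16 over 8 weeks 1.73, 1.16 to 2.35), against 0.79 in comparison cells. Ier2 and Jun, immediate early genes, were at 1.16 and 1.15, against 0.30 and 0.57 in comparison cells. Of 12 immediate early and stress genes 11 were above 0 and 5 past 2-fold, with a median of 0.89, and comparison cells had 0.57. Over all 1052 genes 455 were above 0, with a median of -0.06, and comparison cells had -0.11. Immediate early and stress genes are also known to respond to tissue handling, whose part was not tested.

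The 8 lowest were Phb2, Samsn1, Odc1, Tnfrsf18, Mrps36, Nutf2, Cd200 and Ndufb8. Odc1 was at 357 CPM at 8 weeks and 133 at 16 weeks (-1.40, -2.17 to -0.75), against -0.22 in comparison cells. Tnfrsf18, which encodes the costimulatory receptor GITR, was at 297 and 139 CPM (-1.08), against -0.13 in comparison cells. Cd200 was at -1.03, against -0.50. Of the selecting genes, Xcl1 had a ratio of -0.75 (-1.39 to -0.18), Tnfrsf9 of -0.52 (-1.23 to 0.13) and Ifng of 0.06 (-0.50 to 0.60). In comparison cells the ratios were -1.55 (-2.13 to -1.03) for Xcl1, -0.10 (-0.48 to 0.28) for Tnfrsf9 and -0.45 (-0.75 to -0.16) for Ifng.

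Paired receptors were found in 35 of 39 activated cells at 8 weeks and 15 of 24 at 16 weeks. At 8 weeks 15 of the 35 (42.9%, 26.3 to 60.6%) had a clonotype present in at least 1 other cell of the library, against 129 of 891 comparison cells (14.5%), a difference of 28.4 points (13.3 to 44.8). At 16 weeks the share was 3 of 15 (20%, 4.33 to 48.1%) against 65 of 937 (6.94%), a difference of 13.1 points (-0.0152 to 38.3). Naive-type comparison cells had 3.77% and 0.779%. Repeated receptors too went with depth. Deep comparison cells had 29.4% and 17.6%, from which activated cells differed by 13.4 points (-2.71 to 30.7) and 2.39 (-12 to 28.0). Comparison cells with 1 selecting gene had 30.1% and 20.3%. Between the ages the activated cells differed by -22.9 points (-43.7 to 6.39).

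**Figure D4:**
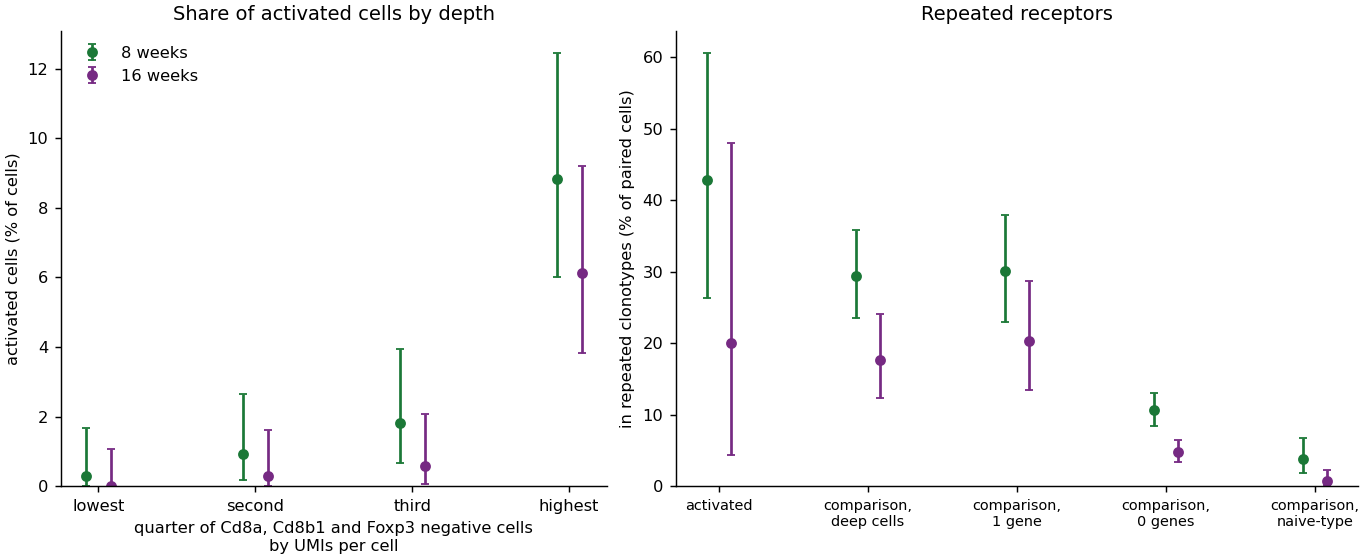
Left, share of activated cells in 4 equal bins of UMIs per cell, and right, share of cells with both receptor chains whose clonotype was in 2 or more cells of the library, for activated and comparison cells, with 95% Clopper-Pearson intervals, 8 weeks in green and 16 weeks in purple. Activated cells reach 8.84% and 6.12% in the deepest bin, and their repeated share overlaps that of deep comparison cells at both ages.

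The repeated activated cells fell into 14 clonotypes at 8 weeks and 3 at 16 weeks, so that only clone 1, printed above, held 2 activated cells. Clone 1 had 14 cells, of which 12 had a Cd4 UMI, and 11 of the 14 were comparison cells. Clone 2 had 8 cells, 1 activated and 7 comparison cells. Clone 3 had 5 cells, with 1 activated cell, 2 comparison cells and 2 with a Foxp3 UMI. Over all clonotypes with activated cells the 40 clonemates at 8 weeks included 34 comparison cells, 3 with a Cd8a or Cd8b1 UMI and 4 with a Foxp3 UMI, and the 4 at 16 weeks included 2 comparison cells, 1 with a Cd8a or Cd8b1 UMI and 2 with a Foxp3 UMI. These counts can overlap in a cell. At 8 weeks 3 of the 15 repeated activated cells (20%) had a clonemate with a Foxp3 UMI, against 25 of 129 repeated comparison cells (19.4%). At 16 weeks these were 1 of 3 and 13 of 65 (20%). A clonemate with a Cd8a or Cd8b1 UMI and no Cd4 UMI was found for 2 of the 15 (13.3%) against 15 of the 129 (11.6%). At 16 weeks this held for 0 of 3 and 1 of 65.

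Clone 16, also printed above, was the only pair of alpha and beta CDR3 base sequences found in both libraries, among 1226 distinct pairs at 8 weeks and 1337 at 16 weeks. It was found in 2 cells at each age, under different barcodes. All 4 had a Cd4 UMI and none a Foxp3 UMI, and 1 of the 2 at 16 weeks was an activated cell. The beta chain of a further clonotype with an activated cell at 8 weeks (clone 12, TRAV5-4 with TRAJ53 and TRBV19 with TRBJ2-7) was found in 7 cells at 16 weeks, none with the same alpha chain. Clone 12 beta: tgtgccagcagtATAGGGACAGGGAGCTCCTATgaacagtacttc

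No activated cell carried the invariant TRAV11-TRAJ18 pair of natural killer T cells, 0 of 50 with paired chains, which allows a share of up to 6%. Among paired comparison cells it was found in 4 of 891 at 8 weeks and 0 of 937 at 16 weeks. At so low a share, 0 of 50 does not set the activated cells apart. TRAV5-4 was used by 3 of 36 activated cells with an alpha chain at 8 weeks (8.33%) and 2 of 15 at 16 weeks (13.3%), against 7.56% and 9.77% of comparison cells. TRAV21-DV12, the segment of clone 1, was used by 4 of 36 (11.1%, 3.11 to 26.1%) against 4.10% at 8 weeks, with 2 of the 4 in clone 1, and by 0 of 15 against 2.79% at 16 weeks.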

How the data were processed

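Per the file headers, the authors deposited raw UMI counts per gene and cell barcode and, for the receptor libraries, counts of reads and UMIs per assembled contig. The submitters' processing notes name mm10 and Seurat, whose role, like the aligner, is not given in the sources used here. Cells with at least 500 genes and at most 10% mitochondrial UMIs were kept, receptor and RNA barcodes were joined within an age, and UMIs were summed per class into CPM (Python 3.11.15, numpy 2.4.6, pandas 2.3.3, scipy 1.17.1, matplotlib 3.10.9). Coordinates are from GENCODE M21. No doublet caller was run: cells with 2 or more beta chains were kept, and left out in an alternative.

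A gene was compared where its mean level in both classes gave 20 or more UMIs in the activated cells. Poisson, conditional and Clopper-Pearson intervals are exact. Summing was checked on simulated data. Depth weighting used 5 bins cut at the quintiles of activated cells, and a count of 0 allows 3.

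Named genes were the 7 selecting genes, Odc1, the 20 highest and 15 lowest by the smaller of both ratios without more than 25% of UMIs in 1 cell, list members past 2-fold or with the most UMIs, 8 and 8 between ages, and genes on the class's makeup. The cells, lists and rules were chosen with earlier results of these data known. In all, 18 gene lists and 15 marker lists were used. Marker lists not described had 0 to 5 UMIs in activated cells, other than the selecting genes and the lists of T cells and Cd4 and Cd8 lineages. At 16 weeks islet endocrine genes were in 12.5% of activated against 1.34% of comparison cells, and dendritic genes in 8.33% against 0.818%. Both lists were at 0 in activated cells at 8 weeks. Endothelial and stromal genes were lower, in 5.13% against 14.5% and 8.33% against 15.2% of cells. Some genes that these rules select are not reported here.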

Additional observations from a re-analysis of the deposited data

Results flagged for a closer look

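The median log2 ratios of 4 gene lists had opposite signs in the libraries, a difference that was not tested. They were immediate early and stress genes (-0.389 at 8 weeks, 0.146 at 16 weeks), lineage factors (-0.0342 and 0.584), follicular helper genes (-0.00276 and 0.695) and interferon-response genes (0.0196 and -0.453).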

How the results depend on the processing

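With 63 cells and 1 library per age, values rest on few cells and on depth. No paired analysis was possible because each age had 1 library. Of 18 genes higher and 6 lower in both libraries, 0 and 0 were found with 3 or more selecting genes required (11 and 2 cells, 108 genes compared) and 0 and 0 after thinning to 1700 UMIs (130 genes compared), but none of the 18 and 6 could be compared in the first and 1 and 0 in the second, so these counts say nothing of them. Comparison cells with no selecting gene and few division genes gave 30 and 10, a minimum of 10 UMIs 35 and 10, and no minimum beyond 1 UMI 1908 and 198. Depth weighting gave 9 higher genes, leaving out cells with 2 or more beta chains 8 (498 compared), and only cells with a paired receptor 8. Only cells with a Cd4 UMI gave 3 lower genes. With 3 or more selecting genes the shares of activated cells were 0.838% and 0.146%, lists whose medians lay above that of all genes in both libraries went from 7 to 0 (1 list had genes), repeated clonotypes at 16 weeks were 0%, and genes between ages went from 12 higher and 16 lower to 2 and 2. Lef1 at 16 weeks was then 0.33. Thinning gave shares of 1.39% and 0.798%, and only cells with a Cd4 UMI gave 2.77% at 16 weeks. Equal weight per cell gave 21 higher and 25 lower genes between ages. For these, the cause was not tested. Of 1048 other values of named genes 898 moved less than their counting interval and 1 turned. Alternatives added after seeing the data gave 18 higher and 4 lower genes without cells with 2 or more UMIs of Fcer1g, Tyrobp, Klrb1c, Ncr1 and Klrd1, and 16 and 5 without the cell with Il13.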
